A study of Mus musculus with 105 samples.

Results

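Cytosolic ribosomal protein genes were followed in mouse livers after diethylnitrosamine (DEN), a carcinogen that hepatocytes activate and that gives liver tumours. The genes were taken by name, as all rows whose symbol began with Rpl or Rps followed by a number, p or a, without the S6 kinases (Rps6k) and without names marked as pseudogenes. This gave 70 of the 12966 rows of the deposited table, 43 named for the large subunit and 27 for the small subunit, with 69 distinct symbols. Every library came from a DEN-treated mouse, WT included, so no comparison here has untreated liver. Sequencing group 1 held 4 libraries per group of WT, of mice labelled Ikk KO (IKO, loss of IκB kinase, with no subunit named) and of mice labelled Shp2 KO (SKO, loss of the phosphatase SHP2, gene Ptpn11). Sequencing group 2 held 3 libraries per group of its own WT, of mice labelled beta catenin KO (BKO, gene Ctnnb1) and of mice labelled cMet KO (MKO, gene Met). Livers of all genotypes were taken at ages of 1, 3, 5 and 8 months, and at 8 months non-tumour liver and tumour were separate samples. The series title places the losses in hepatocytes, so other cells of the liver keep the genes, and the labels do not name the Cre driver or say whether tissue was pooled. The labels number biological replicates and do not say that each is a separate animal, so a p-value here reflects only how far libraries spread, which may in part be technical.

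A ribosome has a small subunit, which reads the mRNA, and a large subunit, which joins amino acids, and each cytosolic ribosomal protein is normally built into it in 1 copy, apart from the acidic P proteins of the stalk. Messenger RNAs of ribosomal proteins often begin with a C followed by a run of pyrimidines, the 5′ terminal oligopyrimidine (TOP) motif, through which mTORC1 and LARP1 control their translation and stability. Growing cells and tumours are known to make more ribosomes, with MYC and mTORC1 among the drivers. When assembly is disturbed, free RPL5 and RPL11 bind MDM2 and stabilise p53.

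The start of the transcript is shown first because the TOP motif is what the genes are best known to share. In RefSeq promoters of GRCm38.p6, 9 of the 53 members with an entry (17.0%) had a C at an annotated start followed by at least 4 bases that were C or T. A gene with several annotated starts counted if any of them matched. The same was found for 813 of all 27025 genes with a promoter entry (3.01%) and for 298 of 10181 genes of the deposited table (2.93%). It was found for 0 of 66 mitochondrial ribosomal protein genes, which serve the separate ribosome of mitochondria. The annotated start is 1 base, and a transcript can start beside it, so a missing match says only that these letters are not at that base. The 9 starts are printed 5′ to 3′ on the strand of the gene, with 15 bases before the start in lower case and the pyrimidine run from the start in capitals.
Rpl14 (chr9:120571502-120571531, plus strand): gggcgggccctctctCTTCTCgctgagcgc
Rpl15 (chr14:18270972-18271001, minus strand): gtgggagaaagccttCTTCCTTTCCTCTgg
Rpl35a (chr16:33056467-33056496, plus strand): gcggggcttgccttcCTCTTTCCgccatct
Rpl38 (chr11:114668565-114668594, plus strand): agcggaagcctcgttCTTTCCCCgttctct
Rplp2 (chr7:141447636-141447665, plus strand): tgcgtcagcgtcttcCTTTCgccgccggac
Rps10 (chr17:27635230-27635259, minus strand): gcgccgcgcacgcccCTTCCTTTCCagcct
Rps15a (chr7:118116133-118116162, minus strand): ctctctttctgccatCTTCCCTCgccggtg
Rps18 (chr17:33955651-33955680, minus strand): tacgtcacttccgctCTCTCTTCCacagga
Rps21 (chr2:180257364-180257393, plus strand): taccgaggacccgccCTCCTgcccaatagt
The longest run was that of Rpl15 (13 bases), a protein of the large subunit. Rpl29, described below, had no entry.

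The libraries count reads near the polyadenylated 3′ end, and that end is often shared. Of the 66 members matched to transcripts, 57 shared at least 1 stretch of 50 bases of the last 300 with another annotated gene in some transcript of theirs, and 9 in none. In the middle transcript of each member, the share of stretches found in no other gene had a median of 46.6% over the members. The share was 100% for 14 members, Rpl22 among them, 59.0% for Rplp0, 47.8% for Rpl29 (82 other genes) and 21.9% for Rps2 (61 other genes). How the authors treated reads that fit more than 1 place is not given in the sources used here, so levels of different members are not compared. Rpl37 and the first of the rows named Rpl37rt held identical values and are 1 measurement. The name pattern also took up Rps19bp1, a binding protein of a ribosomal protein and not a part of the ribosome. Subunits were assigned by name alone, so Rps19bp1 counts with the small subunit. So does Rps23rg1, whose place in the ribosome was not checked. Mean levels were under 10 normalised reads for 9 members, 10 to 100 for 34, 100 to 1000 for 22 and 1000 or more for 5, among them Rps26, Rps3, Rps14 and Rpl22. Rps26 gave 15.7% of the reads of all members and Rps3 7.42%.

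Libraries of group 1 held 4676444 to 10863046 reads and those of group 2 held 6650086 to 20231121. Ptpn11 was at 107.1 to 375.1 normalised reads in SKO non-tumour liver (median 158.9) and 291.8 to 432.8 in WT (median 365.8), and the library labelled SKO 3-month replicate 2 held the 375.1. In tumours it was at 143.3 to 172.4 and 357.0 to 404.2. Ikbkb, the IKK subunit shown here, was at 185.2 to 382.7 in IKO and 274.7 to 478.4 in WT non-tumour liver, and Met at 146.6 to 259.0 in MKO and 187.8 to 273.3 in WT. Ctnnb1 was at 100.9 to 159.2 in BKO and 92.41 to 146.6 in WT. The ranges of Ikbkb, Met and Ctnnb1 thus all overlapped between knockout and WT. A count at the 3′ end may not see the loss of an internal exon, and whether this holds here was not tested. None of the 10 hepatocyte markers was at 0 throughout a group. Markers at 0 throughout at least 1 group were the neutrophil genes Ltf, Ngp and Retnlg, the T cell gene Cd8a and the proliferation gene Ccnb1, and at 8 months this held for Ltf in IKO non-tumour liver.

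Together the members gave less than 1% of all reads, and the share was higher in tumours than in non-tumour liver of the same genotype at 8 months in most sets. WT of group 1 had a share of 0.246% to 0.287% in non-tumour liver (median 0.253%) and of 0.372% to 0.508% in tumours (median 0.389%, n = 4 each). IKO had 0.229% to 0.265% and 0.336% to 0.423%. SKO had 0.240% to 0.357% and 0.383% to 0.476%. In these 3 sets no tumour overlapped its non-tumour liver. WT of group 2 had 0.314% to 0.347% in non-tumour liver and 0.402% to 0.586% in tumours (n = 3 each), also without overlap. BKO tumours (0.312% to 0.401%) overlapped BKO non-tumour liver (0.275% to 0.356%), and MKO tumours (0.362% to 0.518%) overlapped MKO non-tumour liver (0.296% to 0.452%). Mitochondrial ribosomal proteins had a median share of 0.177% and 0.166% in WT of group 1 and of 0.204% and 0.167% in group 2. Before 8 months the WT medians were 0.262%, 0.225% and 0.232% at 1, 3 and 5 months in group 1 and 0.316%, 0.337% and 0.304% in group 2. A few rows of high count gave most of the member reads, so the share follows them more than the other members. These shares are relative to all other RNA of the library, and in bulk tissue fewer cells of a type and less RNA per cell cannot be told apart.

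**Figure D1:**
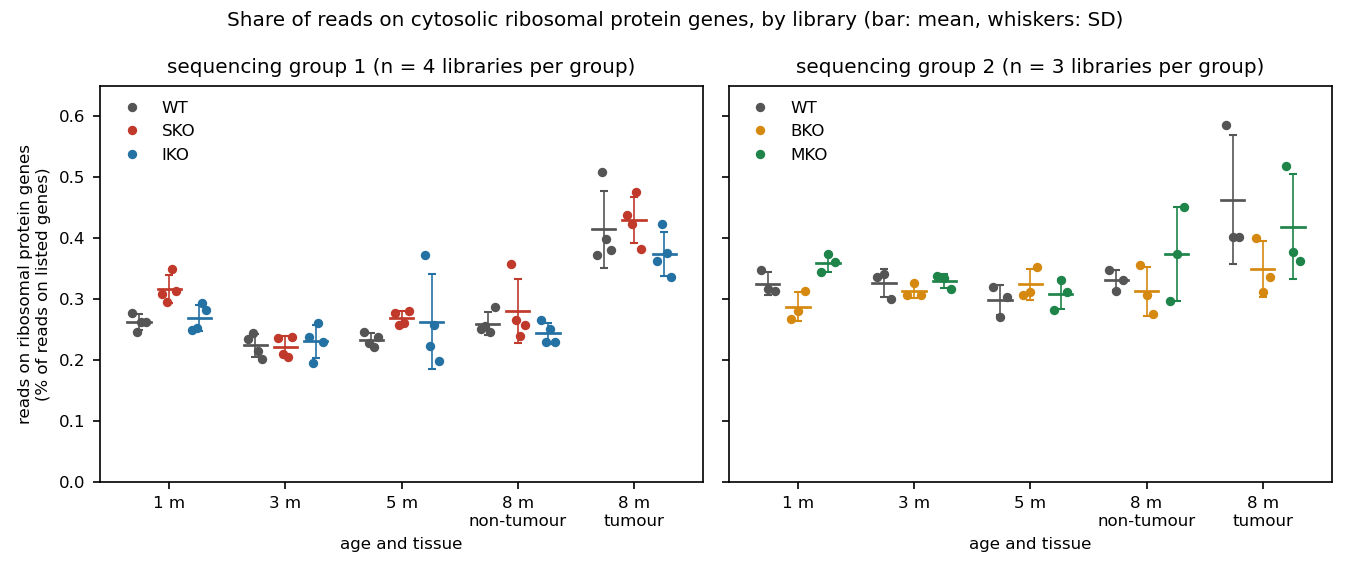
Share of reads over the listed genes that fell on the 70 ribosomal protein rows, in percent (y axis), for each library (points) by age and tissue (x axis), coloured by genotype, with the 2 sequencing groups in separate panels. Tumours of WT, SKO and IKO in group 1 and of WT in group 2 lie above their non-tumour livers, while BKO and MKO tumours overlap theirs.

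Tumours were compared with non-tumour liver at 8 months in each of the 6 sets of genotype and sequencing group, to ask how the genes stand in DEN-induced tumours. In WT of group 1, 34 of 70 members were higher and 1 lower at an adjusted p below 0.05 (limma, Benjamini-Hochberg over all genes), where 42.1% of all genes were called, 22.9% higher and 19.2% lower. The median log2 difference was 0.40 over the members and 0.04 over all genes, and 65 members were above zero. In SKO 29 were higher and 1 lower, with 39.7% of all genes called (21.0% higher, 18.7% lower), and in IKO 24 and 1, with 33.3% (18.2% and 15.1%). Their medians were 0.32 and 0.34, against 0.01 and 0.02 over all genes. In WT of group 2, 30 members were higher and 0 lower, with 27.1% of all genes called (15% higher, 12% lower), and the median was 0.34 against 0.02. In BKO 4 were higher and 0 lower, with 14.7% called (8.39% higher, 6.32% lower) and a median of 0.18, and in MKO 7 and 1, with 17.3% (9.76% and 7.56%) and a median of 0.10. Over all 70 members, the share higher was thus above the share of all genes higher in WT, SKO and IKO, and under or near it in BKO and MKO. Every tumour was above every non-tumour library for 35 members in WT of group 1 (18.9% of all genes), 30 in SKO (18.3%), 23 in IKO (16.2%), 38 in WT of group 2 (19.7%), 18 in BKO (14.3%) and 8 in MKO (14.9%). Counts in group 2 depended on single libraries: 15 without the WT tumour replicate 1 and 18 without the WT non-tumour replicate 2, 8 without the BKO non-tumour replicate 1 and 1 without its replicate 3, and for MKO, 2 without the tumour replicate 1. With only the 2 groups compared in the fit, the counts of WT, BKO and MKO in group 2 were 11, 0 and 0. Such fits hold fewer libraries. The share of all genes called in them, or without 1 library, is not given beside these counts.

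Large-subunit genes made up 22 of the 34 calls in WT of group 1 and 20 of the 30 in WT of group 2, close to their part of the members (43 of 70). Members of higher count gave a similar picture, except in MKO. Of the 27 members with a mean of at least 100 normalised reads 17 were higher in WT of group 1, where 23.0% of the 5076 genes at this level were, and 18 in WT of group 2, where 16.2% were. The same counts were 14 in IKO (21.5% of such genes), 16 in SKO (25.2%), 3 in BKO (10.6%) and 7 in MKO (9.89%). All 7 higher calls of MKO were thus at this level, where their share was above that of such genes. Of the 9 members with the C start printed above, 5 were called higher in WT of group 1, where 48.6% of all members were. In WT of group 2 it was 4 of the 9, where 42.9% of all members were. Their log2 differences were 0.15 to 1.98 and 0.04 to 0.62. Whether the start goes with the difference was not tested.

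The stalk of the large subunit, which recruits the GTP-driven translation factors, showed the difference well. Rplp0, the base of the stalk, was at 254.5, 227.7, 246.5 and 316.4 normalised reads in WT non-tumour liver of group 1 and at 756.2, 1130, 912.7 and 683.9 in the tumours. The values in WT of group 2 were 224.5, 258.1 and 256.0 in non-tumour liver and 543.4, 353.0 and 383.1 in tumours. No tumour overlapped in either group. It rose by 1.62 ± 0.30 (SE, limma adjusted p = 1.41e-05) and by 0.71 ± 0.15 (adjusted p = 0.00052). Rplp0 was called in all 6 sets, with 1.46 in IKO, 1.85 in SKO, 0.60 in BKO and 0.62 in MKO. The BKO call was lost without BKO non-tumour replicate 3 (adjusted p = 0.0532) or tumour replicate 1 (adjusted p = 0.0806). Rplp1, an acidic stalk protein, was at 570.7, 504.2, 531.9 and 721.3 in WT non-tumour liver of group 1 and 1677, 2923, 2173 and 1521 in tumours. It rose by 1.75 ± 0.18 there (adjusted p = 2.4e-11) and by 0.72 ± 0.16 in WT of group 2 (adjusted p = 0.000985). In BKO and MKO its difference was −0.01 and −0.15. Rplp2, its partner, rose by 1.64 in WT of group 1 (adjusted p = 2.99e-11), by 1.5 in IKO and by 1.38 in SKO.

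Rpl38, a large-subunit protein known for its part in the translation of Hox mRNAs, had the largest difference among the members in WT of group 1. It was at 111.8, 114.5, 89.77 and 115.3 normalised reads in non-tumour liver and 417.2, 749.8, 505.9 and 402.9 in tumours, so that every tumour held over 3 times the highest non-tumour value. It rose by 1.98 ± 0.15 (adjusted p = 5.86e-15), by 1.86 in IKO (adjusted p = 3.61e-13) and by 1.78 in SKO (adjusted p = 2.41e-13). WT of group 2 had 148.3, 185.4 and 217.3 in non-tumour liver and 433.7, 211.2 and 271.3 in tumours, which overlapped, a rise of 0.62 ± 0.21 (adjusted p = 0.0285). In BKO and MKO it differed by 0.50 (adjusted p = 0.114) and 0.41 (adjusted p = 0.185).

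Rpl13a, a large-subunit protein also known from the silencing of inflammatory mRNAs, was the other member called in all 6 sets. In WT of group 1 it was at 595.2, 523.7, 570.8 and 663.6 in non-tumour liver and 878.9, 1351, 1334 and 959.0 in tumours, a rise of 0.89 ± 0.13 (adjusted p = 2.79e-07). WT of group 2 had 567.1, 567.3 and 572.7 and then 1017, 774.2 and 904.2, a rise of 0.63 ± 0.11 (adjusted p = 8.45e-05). Both groups were without overlap, and the rises in IKO, SKO, BKO and MKO were 0.68, 0.93, 0.42 and 0.48. Rps15, Rpl4 and Rpl23 were called higher in 5 sets, BKO excepted. Rps15, a protein of the small-subunit head, rose by 1.28 in WT of group 1 and 0.64 in WT of group 2, and Rpl4, which lines the exit tunnel, by 1.49 and 0.61. The MKO call of Rpl4 (0.66) was lost without MKO tumour replicate 1 (0.41, adjusted p = 0.0982). A further 11 members were called higher in 4 sets, 9 in 3, 8 in 2 and 14 in 1.

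Rps26 is a small-subunit protein near the mRNA exit channel. It was at 3712, 3722, 3596 and 3458 normalised reads in WT non-tumour liver of group 1 and 6643, 8375, 8691 and 6295 in tumours, without overlap, and rose by 1.03 ± 0.11 (adjusted p = 4.83e-11). WT of group 2 had 4753, 4648 and 4514 and then 6563, 5084 and 6270, also without overlap, a rise of 0.35 ± 0.13 (adjusted p = 0.0414). Rps3, of the mRNA entry, was not called in any set and lay between −0.29 and 0.24. Rps20, a protein of the small-subunit head, rose by 1.20 ± 0.24 in WT of group 2 (1087, 1194 and 906.2 against 2986, 1760 and 2860 normalised reads, adjusted p = 0.000281) and differed by 0.13 in WT of group 1 (adjusted p = 0.57).

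Rpl22 moved the other way. It is a large-subunit protein that translation can do without, known for its role in lymphocyte development and as a target of loss in cancers. In SKO it was at 1768, 1745, 1891 and 1237 in non-tumour liver and 1061, 1180, 917.0 and 980.3 in tumours, without overlap, and fell (−0.66 ± 0.19, adjusted p = 0.00361). In MKO it was at 1618, 2407 and 2188 and at 1343, 1420 and 1282, also without overlap (−0.59 ± 0.18, adjusted p = 0.0172). WT of group 1 had 1497, 1550, 1629 and 1341 and then 1216, 1329, 571.6 and 1123, again without overlap (−0.56 ± 0.19, adjusted p = 0.0128). The values of BKO (0.04), IKO (−0.28) and WT of group 2 (0.15) were not called. Under quantile normalization the WT difference was −0.35 (adjusted p = 0.144) and the MKO difference −0.46 (adjusted p = 0.114). With only the groups compared in the fit both calls were lost as well (adjusted p = 0.0805 and 0.139). Without WT tumour replicate 3, the lowest, the WT difference was −0.29 (adjusted p = 0.193), and the MKO call was lost without any one of MKO non-tumour replicates 2 and 3 and tumour replicate 1 (adjusted p = 0.0604 to 0.081). Its paralogue Rpl22l1, which can take its place in the ribosome, rose by 1.06 ± 0.19 in WT of group 1 (adjusted p = 7.16e-06), by 0.66 in WT of group 2 (adjusted p = 0.00164) and by 0.66 in IKO (adjusted p = 0.00522). It differed by 0.36 in SKO, 0.08 in BKO and −0.03 in MKO. The only other lower call was Rps13, of the small subunit, in IKO, where the tumours held 0 reads and non-tumour liver 1.527, 5.691, 8.155 and 0.0 normalised reads, too few for a fold, and the call was lost in 6 of the fits that left out 1 library and with only the groups compared (adjusted p = 0.0599).

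**Figure D2:**
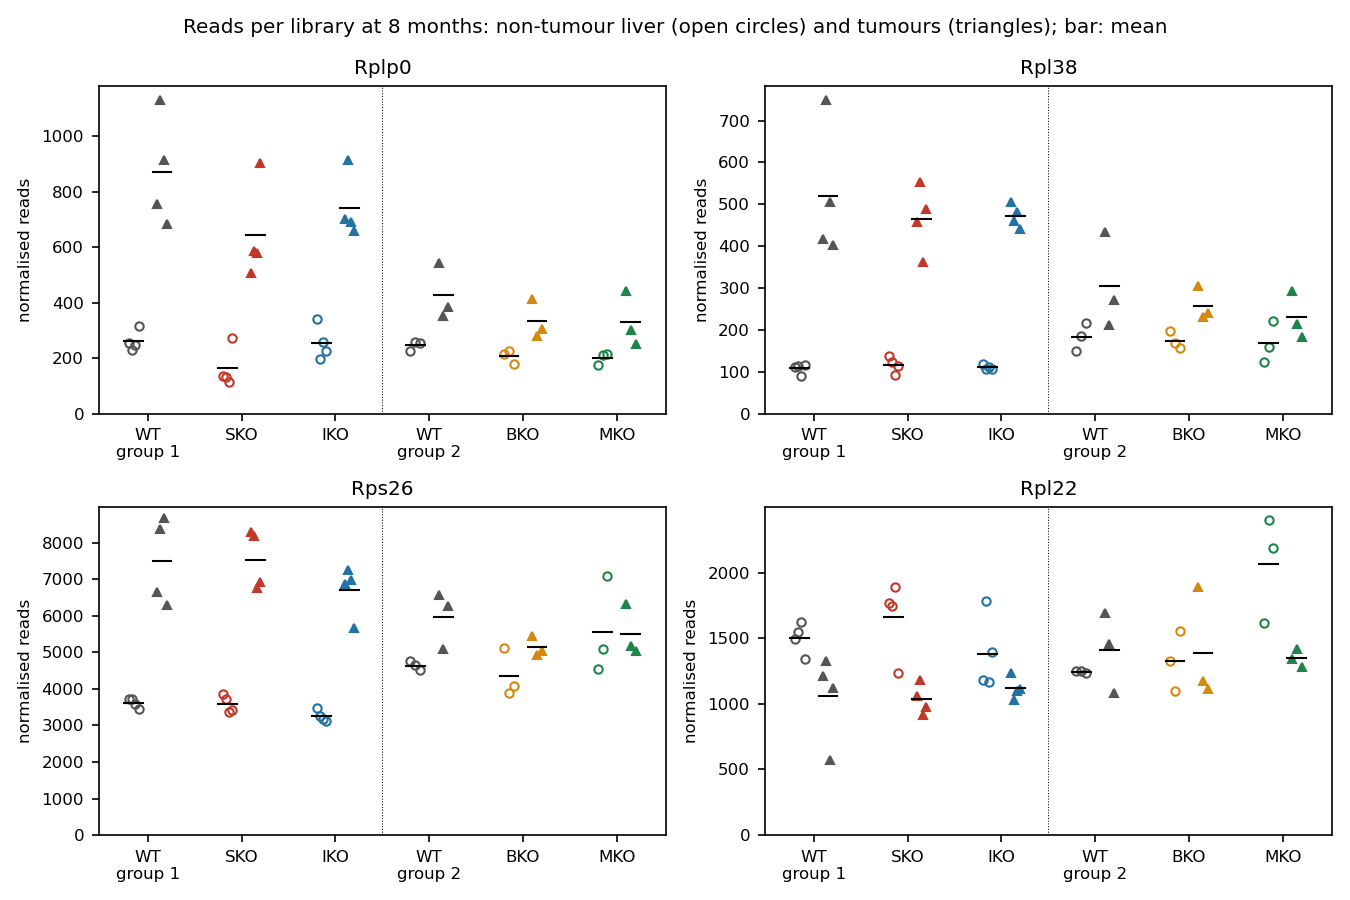
Normalised reads (y axis, linear from 0) of Rplp0, Rpl38, Rps26 and Rpl22 in each 8-month library of non-tumour liver (open circles) and tumour (triangles), by genotype and sequencing group (x axis), with bars at the means. Rplp0 tumours lie above non-tumour liver in every set, and Rpl22 tumours lie below in SKO, MKO and WT of group 1.

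Other genes of translation were set beside the members from lists named by function. Of 8 elongation factors, which drive the ribosome along the mRNA, 5 were higher and 1 lower in WT tumours of group 1 (median 0.87) and 3 and 0 in group 2 (median 0.39), with Eef1b2 at 1.31 and 0.98. Of 34 initiation factors 16 were higher and 4 lower in group 1 (median 0.31) and 4 and 0 in group 2 (median 0.08). Rack1, a scaffold on the small subunit, rose by 1.31 and 0.71. Of 16 other genes known for TOP mRNAs 4 and 2 were higher and 0 lower, with Npm1, a nucleolar assembly chaperone, at 1.23 and 0.74. Of 61 ribosome biogenesis genes 11 were higher and 5 lower in group 1 (median 0.03) and 7 and 2 in group 2 (median 0.05). Of 76 mitochondrial ribosomal proteins 13 were higher and 13 lower in group 1 (median 0.05) and 2 and 8 in group 2 (median −0.08). Among 21 genes around mTORC1, MYC and LARP1, 5 were higher and 6 lower in group 1 and 1 and 3 in group 2, with Eif4ebp1, a repressor of initiation that mTORC1 switches off, up by 0.89 and 0.63. Of 14 genes of the response to free ribosomal proteins and p53, 6 and 4 were higher and 0 lower, with the cell cycle inhibitor Cdkn1a at 1.72 and 2.28. The 18 pseudogene rows had 5 and 3 higher and 0 lower.

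Markers of cell state and cell type moved between tumour and non-tumour liver as well. Of 19 proliferation markers 15 were higher in WT tumours of group 1 (median 1.06) and 16 in group 2 (median 0.94), and 12 in SKO, 7 in IKO, 4 in BKO and 0 in MKO. Their summed level was 19.6 to 36.24 CPM in WT non-tumour liver of group 1 and 80.01 to 141.0 in tumours. In group 2 it was 20.22 to 26.43 and 53.16 to 104.3 in WT, 26.61 to 68.32 and 53.82 to 80.85 in BKO, and 33.09 to 45.2 and 49.92 to 55.19 in MKO. BKO and MKO, with few ribosomal protein calls, also had the fewest proliferation markers called. They had the fewest calls over all genes as well, 14.7% and 17.3%, against 27.1% to 42.1% in the other sets. Whether these counts go together was not tested. Transcripts of the mitochondrial genome fell, 7 of 7 in WT of group 1, from 223300 to 279000 CPM down to 109100 to 148600, and 3 of 7 in group 2, from 169100 to 206600 down to 75680 to 118400. Of 10 hepatocyte markers 5 were higher and 2 lower in group 1 and 4 and 3 in group 2. Stellate cell markers had 7 of 12 higher and 2 lower, then 5 and 2, and macrophage markers 2 of 14 higher and 3 lower, then 0 and 3. Cholangiocyte markers had 4 of 7 higher and 0 lower, then 2 and 0. Neutrophil markers had 1 of 6 higher (Lcn2) and 3 lower (S100a9, Ngp and Retnlg) in group 1, and 1 (Lcn2) and 0 in group 2. The summed hepatocyte markers of WT were at 45680 to 98470 CPM in non-tumour liver and 203800 to 225200 in tumours of group 1, and at 74820 to 110100 and 160600 to 187000 in group 2. Cholangiocyte sums were 35.78 to 94.03 and 141.6 to 485.7, then 38.15 to 42.96 and 70.58 to 93.74. Neutrophil sums were 12.77 to 191.3 and 266.5 to 1857, then 10.49 to 329.1 and 505.8 to 1092. In WT of both groups these 3 sums did not overlap between tumour and non-tumour liver. Lcn2 was the only neutrophil marker called higher in either group, so the neutrophil sum is not read as more neutrophils. The part of these markers in the ribosomal protein differences was not tested.

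Whether the tumour difference itself differed between knockout and WT was tested directly. No member was called in any of the 4 knockouts (limma), where 0.123% (IKO), 0.0308% (SKO), 0.0308% (BKO) and 0.131% (MKO) of all genes were. At an unadjusted p under 0.05 there were 3, 2, 9 and 14 members, and limma-voom called 0 in each. The shares of all genes by these measures are not given here. Without 1 library the MKO count reached 4 (without WT tumour replicate 2) and 3 (without MKO non-tumour replicate 1). The smaller number of calls in BKO and MKO is therefore not shown to differ from WT.

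In non-tumour liver each knockout was compared with WT of its sequencing group over the 4 stages, to ask whether the loss changed the genes before or beside tumours. Members called numbered 3 in IKO (1 higher, 2 lower), where 9.04% of all genes were called (3.87% and 5.17%). SKO had 7 (1 and 6), where 22.9% of all genes were called (12% and 10.9%). BKO had 6 (2 and 4), where 19.6% of all genes were called (10.6% and 9.04%), and MKO 1 (higher), where 2.71% were (1.58% and 1.13%). These shares of members were below or near those of all genes. The median over the members was 0.04 in IKO, −0.00 in SKO, 0.00 in BKO and 0.01 in MKO, where all genes had 0.00 to 0.01. The IKO count was 1 without the IKO 5-month replicate 3. The BKO count was 3 without any one of BKO 1-month replicate 3, WT 5-month replicate 1, WT 8-month non-tumour replicate 3 or BKO 8-month non-tumour replicate 1. The MKO count was 2 without the MKO 5-month replicate 2 and 4 without the MKO 8-month non-tumour replicate 1.

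**Figure D3:**
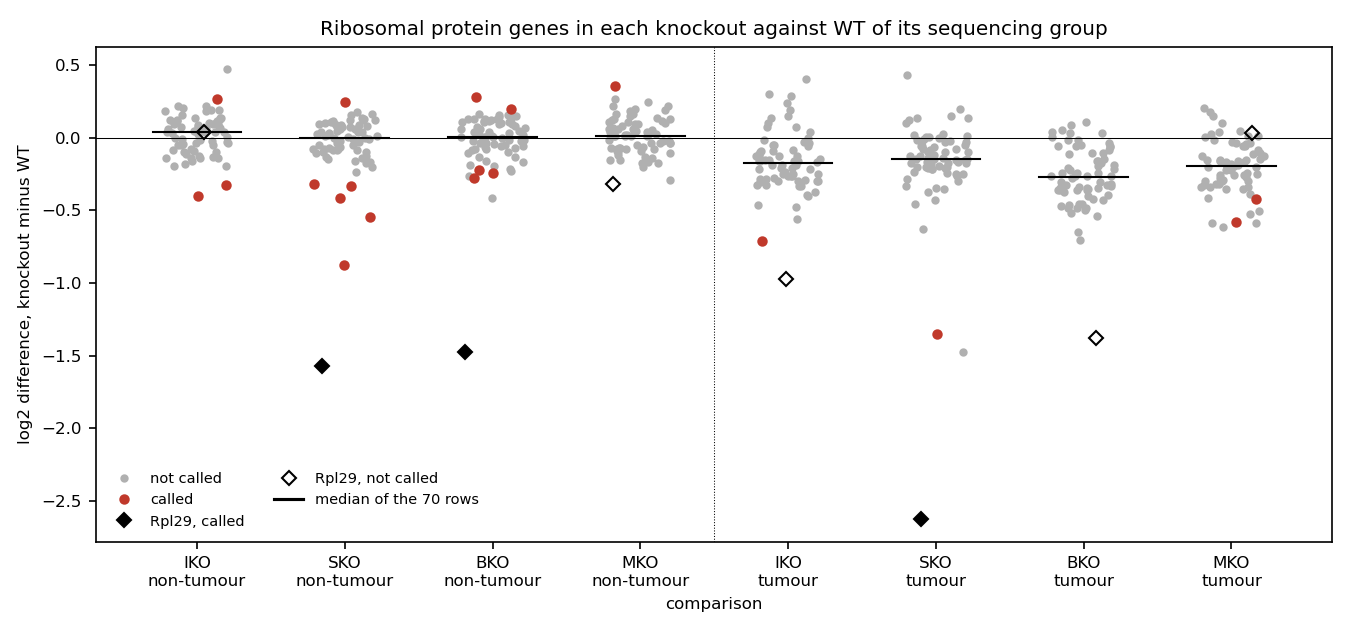
Log2 difference of knockout against WT on the deposited scale (y axis) for each ribosomal protein row (points) in non-tumour liver and in tumours of the 4 knockouts (x axis), with called rows and Rpl29 marked and the median drawn. In SKO and BKO Rpl29 lies far below the other rows, at −1.57 and −1.47 in non-tumour liver.

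Rpl29 is described apart from the other members. It encodes a small large-subunit protein that mice can live without, at the cost of slower growth, and its gene lies at chromosome 9, 106428889 to 106431568 (GRCm38.p6). In WT non-tumour liver and tumours it was at 20.58 to 109.1 normalised reads in group 1 (20 libraries) and 41.6 to 71.86 in group 2 (15 libraries), with none under 10. In SKO it was under 10 in 18 of 20 libraries (median 1.224). The 2 exceptions were both at 1 month, replicates 3 and 4 with 29.28 and 33.99, beside 1.217 and 5.315 in replicates 1 and 2. SKO had 2.043, 0.0, 1.231 and 1.054 at 3 months, 1.049, 2.124, 2.368 and 2.419 at 5 months, and 0.0, 0.0, 1.101 and 0.7419 in non-tumour liver at 8 months. SKO tumours had 0.0, 1.575, 0.0 and 1.539 against 67.49, 87.09, 109.1 and 53.07 in WT. Every SKO library after 1 month was thus far under every WT library.

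The mean in SKO non-tumour liver was 5.246 ± 10.42 against 39.71 ± 12.46 in WT (SD, n = 16 each), a fall of 1.57 ± 0.17 on the deposited log2 scale (adjusted p = 1.64e-10, and −1.634 to −1.498 with any 1 library left out). In tumours the difference was −2.63 ± 0.33 (adjusted p = 2.13e-07). The deposited scale compresses such low counts, and limma-voom on recovered reads gave −3.97 and −5.98. By stage the difference was −0.74 at 1 month (adjusted p = 0.124), −1.72 at 3 months (adjusted p = 0.000773), −1.89 at 5 months (adjusted p = 0.000179) and −1.94 at 8 months (adjusted p = 0.000139). The library labelled SKO 3-month replicate 2, with Ptpn11 among the WT values, held 0.0 reads of Rpl29, and the non-tumour difference without it was −1.54.

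In BKO Rpl29 took a low and a middle level. It was under 10 in 6 of 15 libraries, with 0.0 and 0.7997 in replicates 1 and 3 at 3 months, 0.0 and 0.5338 in replicates 2 and 3 at 5 months, and 0.0 and 1.579 in replicate 2 of the 8-month non-tumour liver and tumour. The other 9 BKO libraries were at 16.77 to 29.05, all under the lowest WT value of 41.6. The mean in BKO non-tumour liver was 13.35 ± 11.92 against 56.24 ± 7.718 in WT (SD, n = 12 each), a fall of 1.47 ± 0.19 (adjusted p = 5.87e-07). At 1 month, where all 3 libraries were at 22.36 to 25.89, the difference was −0.76 (adjusted p = 0.281), and at 3, 5 and 8 months −1.80 (adjusted p = 0.00523), −1.90 (adjusted p = 0.00296) and −1.43 (adjusted p = 0.0239). In BKO tumours, at 17.44, 1.579 and 28.47 against 71.86, 62.08 and 61.56 in WT, the groups did not overlap. The difference was −1.38 ± 0.38 (limma adjusted p = 0.0904). Its adjusted p was 0.0395 with limma-voom and 0.0443 without BKO tumour replicate 3. It was 0.0678 under quantile normalization, 0.643 with only the groups compared and up to 0.509 with 1 library left out.

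IKO held 2 libraries of 20 under 10, the replicate 4 of the 8-month non-tumour liver (1.261) and tumour (0.0), and the others were at 16.31 to 81.71. The differences from WT were 0.04 in non-tumour liver (adjusted p = 0.927) and −0.97 in tumours (limma adjusted p = 0.0929). The tumour difference had an adjusted p of 0.0231 with limma-voom and 0.0131 without IKO tumour replicate 2. It had 0.111 under quantile normalization, 0.469 with only the groups compared and up to 0.648 with 1 library left out. MKO had none under 10, at 14.72 to 95.56, with differences of −0.32 (adjusted p = 0.393, or 0.0492 with only the groups compared in the fit) and 0.03 (adjusted p = 0.98). Over all libraries the 26 low values ended at 5.315 and the next value was 14.72. In both IKO and BKO the same replicate number was low in tumour and non-tumour liver at 8 months. What the low libraries share was not tested. Its gene lies on the chromosome of Ctnnb1, 14.5 Mb from it, and on another chromosome than Ptpn11.

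**Figure D4:**
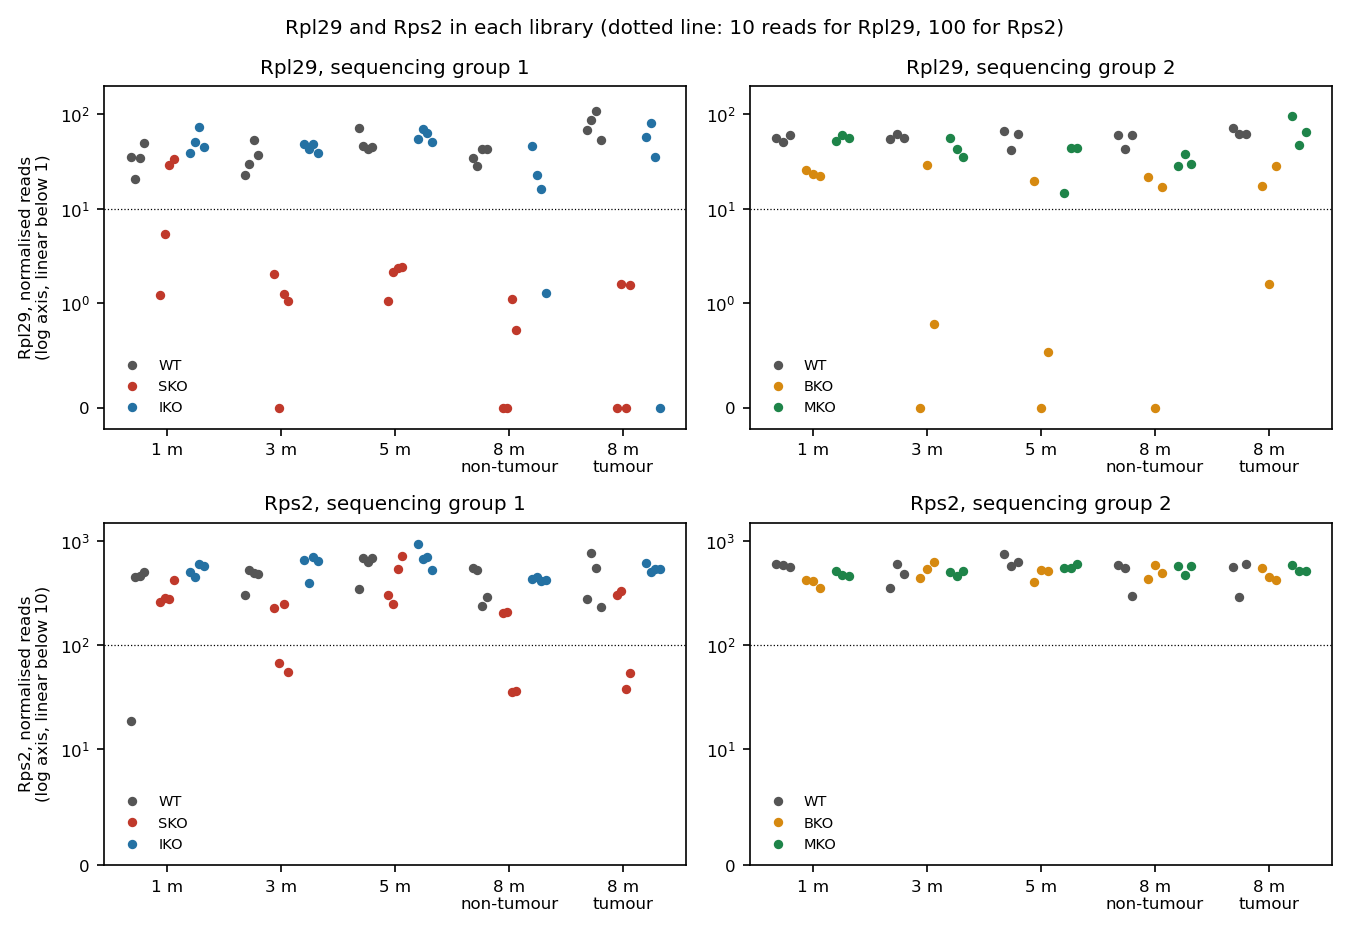
Normalised reads of Rpl29 and Rps2 (y axis, log scale, linear below 1 for Rpl29 and below 10 for Rps2) in each library (points) by age and tissue (x axis), coloured by genotype, with the 2 sequencing groups in separate panels and dotted lines at 10 and 100. Rpl29 is under 10 in 18 of 20 SKO libraries, 6 of 15 BKO and 2 of 20 IKO, and Rps2 is under 100 in 6 SKO libraries and 1 WT library of group 1.

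Rps2, a small-subunit protein at the mRNA entry, also fell into a high and a low level, in sequencing group 1. It was under 100 in 7 libraries, of which the highest was at 67.33, and the next value was 203.1. The low libraries were SKO 3-month replicates 2 and 4 (67.33 and 54.79), SKO 8-month non-tumour replicates 3 and 4 (35.23 and 36.35), SKO tumour replicates 3 and 4 (38.21 and 53.87) and WT 1-month replicate 1 (18.82). In 6 of the 7, all of them SKO, Rpl29 was low too, as it was in 18 of the 20 SKO libraries. In the WT library it was not under 10. In group 2 Rps2 was at 289.1 to 750.8. The SKO non-tumour mean was 257.6 ± 181.8 against 448.5 ± 175.7 in WT (SD, n = 16 each), a fall of 0.88 ± 0.26 (adjusted p = 0.00888). In SKO tumours the difference was −1.48 ± 0.51 (adjusted p = 0.134).

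The other calls in SKO non-tumour liver were smaller. Rplp0, the stalk base, was at 36.88 to 478.7 against 226.4 to 476.9 in WT, with SKO 3-month replicate 4 the lowest, and fell by 0.54 ± 0.15 (adjusted p = 0.00542). Rpl6, a large-subunit protein of low count here, fell by 0.33 ± 0.09 (0.0 to 11.9 against 4.109 to 13.93 normalised reads, adjusted p = 0.00527). Rpl22l1 fell by 0.32 ± 0.09 (adjusted p = 0.00984) and Rps4l, a paralogue of Rps4x, by 0.42 ± 0.14 (adjusted p = 0.0214). Rps7, of the small subunit, rose by 0.25 (12.88 to 43.09 against 6.089 to 29.9, adjusted p = 0.0394), and lost its call under quantile normalization (adjusted p = 0.0638) and in 13 of the fits that left out 1 library. All these ranges overlapped. In SKO non-tumour liver 14 of 14 macrophage markers (median 0.57) and 10 of 19 proliferation markers were higher, and 6 of 10 hepatocyte markers were lower (median −0.35). At 8 months the summed macrophage markers were at 943.1 to 1243 CPM in SKO and 242.6 to 730.1 in WT. Their part in these differences was not tested. Of the genes around mTORC1, MYC and LARP1 4 of 21 were lower and 1 higher, among them Larp1 at −0.31 and Pdcd4, a translation repressor, at −0.64, and of ribosome biogenesis genes 2 of 61 were higher and 6 lower.

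In BKO the calls beside Rpl29 were Rpl6 and Rpl31, which rose by 0.28 ± 0.08 (adjusted p = 0.0131) and 0.20 (adjusted p = 0.0395), and Rplp0, Rpl7 and the second row named Rpl37rt, which fell. Rplp0 was at 170.9 to 226.8 against 205.3 to 258.5 normalised reads in WT and fell by 0.24 (adjusted p = 0.0196). Rpl7, a large-subunit protein, fell by 0.22 (adjusted p = 0.0339) and Rpl37rt by 0.28 (adjusted p = 0.0279). Rpl31 lost its call under quantile normalization (adjusted p = 0.0625) and in 14 of the fits that left out 1 library, and Rpl37rt in 5 (BKO 1-month replicate 3, WT 5-month replicate 1, BKO 5-month replicate 3, WT 8-month non-tumour replicate 3 and BKO 8-month non-tumour replicate 1). Stellate cell markers had 10 of 12 higher in BKO non-tumour liver, macrophage markers 7 of 14 and cholangiocyte markers 5 of 7, and their part in these differences was not tested. In IKO Rps15a, a small-subunit protein with the C start shown above, fell by 0.40 (3.262 to 27.34 against 5.479 to 42.78, adjusted p = 0.00439), and Rpl9, of the large subunit, fell by 0.32 (adjusted p = 0.0258, lost without WT 3-month replicate 2 or IKO 5-month replicate 3). Rpl35a, known from Diamond-Blackfan anaemia, rose by 0.27 (median 150.5 against 111.2 normalised reads, adjusted p = 0.0276, or 0.0509 with only the groups compared in the fit). Its call was lost without any one of WT 1-month replicate 2, WT 3-month replicate 1, IKO 5-month replicate 3 and IKO 8-month non-tumour replicate 1. In MKO Rpl6 was the only call, at 16.46 to 42.38 against 10.89 to 25.55 in WT, a rise of 0.36 ± 0.08 (adjusted p = 0.0115).

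Members within 10 Mb of a targeted gene were looked at in the knockout of that gene. Rpl6 lies 0.01 Mb from Ptpn11 and Rplp0 lies 5.57 Mb from it, and both fell in SKO, as given above. Rpl37rt, at 6.02 Mb, differed by −0.05 (adjusted p = 0.719) and −0.18 (adjusted p = 0.132) in its 2 rows. The first row is the same measurement as Rpl37, which lies on chromosome 15, so its value is not shown to belong to the place near Ptpn11. In BKO Rpl14, 0.36 Mb from Ctnnb1, differed by 0.04 (adjusted p = 0.83), and Rpsa, the laminin receptor and small-subunit protein at 0.80 Mb, by 0.14 (adjusted p = 0.282). No member lay within 10 Mb of Ikbkb or Met.

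Tumours of each knockout were compared with WT tumours, and few members were called. BKO had 0 calls (limma), where 0.548% of all genes were called. There were 24 members at an unadjusted p under 0.05 and 2 called by limma-voom, and the shares of all genes by these measures are not given here. Of all genes 0.162% were lower in BKO. IKO had 1 lower (3.6% of all genes called, 1.13% lower), SKO 2 lower (1.72%, 1.04% lower) and MKO 2 lower (4.03%, 1.04% lower). Medians were −0.27 in BKO, −0.20 in MKO, −0.18 in IKO and −0.15 in SKO, where all genes had −0.01 to 0.00. Only 7, 11, 12 and 12 of the 70 members were above zero. In BKO every tumour was below every WT tumour for 20 members, where this held for 5.74% of all genes, and above for 0 (6.34%). In MKO this held for 12 below (7.15%), in IKO for 6 (3.13%) and in SKO for 2 (2.89%). The WT tumours are shared by the 2 comparisons of a sequencing group, so the 4 medians are not independent. WT tumour replicate 1 of group 2 had the highest share of ribosomal protein reads (0.586%, the others 0.402% each), as did WT tumour replicate 2 of group 1 (0.508%, the others 0.372% to 0.398%).

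The counts in tumours rest on few libraries. In BKO the count was 1 without BKO tumour replicate 1 or 3 and 3 without WT tumour replicate 2. In IKO it was 0 without WT tumour replicate 2 or 3 or IKO tumour replicate 3, and 2 without IKO tumour replicate 2. In MKO it was 0 without WT tumour replicate 1 or 3 or MKO tumour replicate 3, 1 without MKO tumour replicate 1 or 2, and 6 without WT tumour replicate 2.

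Besides Rpl29 the calls in tumours were of paralogues and Rpl15. Rpl22l1 was at 41.64, 30.2, 24.48 and 34.17 in IKO tumours and 61.36, 81.09, 83.08 and 48.25 in WT, without overlap, and fell by 0.71 ± 0.19 (adjusted p = 0.0199, lost without any one of WT tumour replicates 2 and 3 and IKO tumour replicate 3, and 0.116 with only the groups compared). In MKO tumours it was at 15.25, 17.05 and 7.128 against 27.59, 24.35 and 33.47, without overlap, and fell by 0.58 (adjusted p = 0.0303, lost without any one of WT tumour replicates 1 and 3 and MKO tumour replicates 1 and 3, and 0.358 with only the groups compared). Its differences in SKO and BKO tumours were −0.63 (adjusted p = 0.0665) and −0.35 (adjusted p = 0.406). Rps4l was at 14.81, 1.575, 5.27 and 10.77 in SKO tumours against 18.41, 24.03, 96.72 and 82.02 in WT, and fell by 1.35 ± 0.27 (adjusted p = 0.00203, or 0.249 with only the groups compared in the fit). Rpl15, of the large subunit, was at 13.72, 12.9 and 12.96 in MKO tumours against 26.3, 19.48 and 26.89, and fell by 0.42 (adjusted p = 0.043, lost in 5 of the fits that left out 1 tumour, all but WT replicate 2, and 0.381 with only the groups compared). Rps27l, a p53-responsive paralogue of Rps27, was between −0.10 and 0.10 in the 4 tumour comparisons and not called. Rpl7l1, a paralogue of Rpl7, was between −0.15 and 0.24, and Rps19bp1 between −0.26 and 0.04, and neither was called.

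Single stages and age gave few calls. Here and for the single stages below, counts at an unadjusted p, by limma-voom or with a library left out have no share of all genes beside them. Between 1 and 8 months in WT 0 members were called in either group (limma), where 7.0% and 1.72% of all genes were, with 9 and 6 at an unadjusted p under 0.05 and 0 called by limma-voom. The count in group 1 was 1 without WT 1-month replicate 2 or 8-month non-tumour replicate 3, and 1 with only the groups compared. In IKO 4 members were called at 1 month (9.17% of all genes), Rpl35a, Rpl4 and Rpl8 higher by 0.62, 0.57 and 0.55 and Rps23rg1 lower by 0.66, with 0 without WT replicate 2, 9 without WT replicate 4 and 2 without any one of IKO replicates 1 to 3. No member was called in IKO at 3, 5 or 8 months (limma and limma-voom, where limma called 0.201%, 1.45% and 0.201% of all genes), with 7, 5 and 1 at an unadjusted p under 0.05.

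SKO had 3 higher at 1 month (16.1% of all genes), Rplp1 by 0.52, Rpl4 by 0.50 and Rpl7l1 by 0.42, with 0 without WT replicate 2 and 1 without any one of WT replicate 1 or SKO replicates 2 to 4. At 3 months it had 3 higher and 3 lower (5.19%), with Rps2 at −1.63, Rplp0 at −1.05 and Rps20 at 0.74, and only 1 call was made without SKO replicate 4 and 3 without WT replicate 3. At 5 months 4 were lower (6.02%), with Rpl22l1 at −0.86 and Rpl30 at −0.75, and at 8 months 2 (5.03%), Rpl29 and Rps2, with 1 without any one of WT replicates 1 and 2 or SKO replicate 3.

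BKO had 0 calls at 1 month by limma or limma-voom (4.37% of all genes by limma, 3 members at an unadjusted p under 0.05). It had Rpl29 lower at 3 months (1.54%), lost without BKO replicate 1 or 3, and Rpl29 lower and Rpl12 higher by 0.45 at 5 months (6.44%), with 1 call without any one of WT replicates 1 and 2 or BKO replicates 2 and 3. At 8 months it had Rpl29 lower (4.91%), lost without any one of WT replicates 1 and 3 or BKO replicate 2. MKO had 0 calls by limma or limma-voom at 1, 3 and 5 months (0.185%, 0.0231% and 0.0463% by limma), with 5, 2 and 9 members at an unadjusted p under 0.05. At 8 months it had 3 higher (5.74%), Rpl22 by 0.70, Rps28 by 0.69 and Rpl6 by 0.63, with 0 without WT replicate 1, 1 without WT replicate 3 or MKO replicates 2 or 3, and 8 without MKO replicate 1. Rpl22 was at 1618, 2407 and 2188 in MKO and 1250, 1252 and 1235 in WT.

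Tested directly, the knockout difference changed over the 4 stages for 4 members in SKO (5.68% of all genes): Rpl35a, Rps20, Rplp1 and Rpl30. Rpl35a differed by 0.32, 0.64, −0.41 and −0.10 at 1, 3, 5 and 8 months, and Rplp1 by 0.52, 0.42, −0.36 and −0.28. The count was 2 without SKO 1-month replicate 3. For IKO, BKO and MKO 0 members were called (0.0694%, 0.663% and 0.339% of all genes, limma), with 9, 5 and 7 at an unadjusted p under 0.05 and 0 called by limma-voom.

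Within groups the better measured members varied together. Over deviations from group means, the median Pearson correlation between pairs of the 26 genes with at least 100 normalised reads was 0.21 over 60 libraries and 0.22 over 45. It was 0.14 and 0.16 for 43 mitochondrial ribosomal proteins and 0.00 and 0.01 for all 5076 genes at this level, and 0.09 and 0.10 for all 69 members with distinct values. Rps10, of the small-subunit head, followed the mean of the other members with at least 100 normalised reads most closely by the lower of its 2 correlations (0.78 and 0.71), then Rpl13a (0.72 and 0.69) and Rpl14 (0.72 and 0.63). Rps4l had −0.21 and −0.14, and Rpl29 0.28 and 0.22. All genes of a library share its depth, and no test was made of these correlations.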

How the data were processed

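Bulk liver RNA was prepared by MAPS, which counts 3′ ends, per the labels' protocols. Per the submitters' processing notes, STAR 2.7.10a, HTSeq 2.0.2 and DESeq2 1.32.0 were used with GRCm38 (mm10). The read length, strand setting, annotation and treatment of reads with several places are not given in the sources used here. The authors deposited 1 log2-scale value per gene and library after a variance-stabilising transform, with a floor of 3.8289 for 0 reads, which compresses low counts, so log2 differences of low genes are understated. When the transform was inverted, 100.0% of values came out as whole reads (tolerance 0.05). These served for levels (normalised reads), shares and 1 alternative, and 0 columns were left out.

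Each sequencing group was fitted alone in R 4.3.3 with limma 3.58.1 on the deposited values (1 mean per group, moderation with a trend), with Benjamini-Hochberg adjustment over all 12966 genes per comparison and calls at adjusted p below 0.05. The alternatives were quantile normalization, leaving out the lowest 20% of genes, only the groups compared, a replicate block, limma-voom on recovered reads, and each library left out. Counts of members called in the alternatives, or at an unadjusted p under 0.05, are given without the share of all genes. The fit was tested on simulated data. Members, lists, the setting apart of Rpl29 and the comparisons were chosen with earlier results of these data known. Named were Rpl29, up to 3 called members with the largest rise and fall per comparison, members with many reads, paralogues, members within 10 Mb of a targeted gene, and some further calls, chosen after their values were seen. Same-numbered libraries were checked in 26 pairs of groups, and all same-number correlations were over 0.1 in 2 (non-tumour liver at 8 months of MKO and WT, 0.12 to 0.30, and BKO tumour and non-tumour liver, 0.23 to 0.33). Sequences and positions are from RefSeq (GRCm38.p6), which placed all 70 rows. Shared 3′ ends are from GENCODE M21 transcripts. Results for 1 member are not reported here.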

Additional observations from a re-analysis of the deposited data

Results flagged for a closer look

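The share of reads and the levels of 8 members were looked at in 15 groups of 4 libraries (135 in all) for a library far from the other 3, and 7 were found, where chance gives about 1 in 20. Rpl29 was at 71.2 normalised reads in WT 5-month replicate 1. Rps2 was at 18.8 in WT 1-month replicate 1, 422 in SKO 1-month replicate 4 and 348 in WT 5-month replicate 1. Rplp0 was at 273 in SKO 8-month non-tumour replicate 4, Rpl38 at 89.8 in WT 8-month non-tumour replicate 3 and Rps15 at 96.1 in IKO 3-month replicate 2. The SKO difference from WT changed over the stages for Rpl35a (limma adjusted p = 0.0107), Rps20 (adjusted p = 0.0132), Rplp1 (adjusted p = 0.0268) and Rpl30 (adjusted p = 0.0443). These are 5.71% of the members, near the 5.68% of all genes called.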

How the results depend on the processing

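Of 45 named differences 40 were called. The replicate block kept the direction and the side of the threshold for all 45 and moved no count by over 1.5 times, the low-value filter for the 43 it could give, quantile normalization for 41, limma-voom for 39 and fitting only the groups compared for 30. Counts of members called changed as follows, given without the share of all genes called in the same fit. With only the groups compared they were 0 (from 4) for BKO and 0 (from 8) for MKO tumour against non-tumour liver and 11 (from 30) for WT of group 2, 0 (from 1), 0 (from 2) and 1 (from 2) for IKO, MKO and SKO tumours against WT, 3 (from 1) for MKO non-tumour liver, 2, 0 and 1 (from 0, 1 and 2) for BKO at 1, 3 and 5 months, 2 (from 4) for IKO at 1 month, 0 (from 3) for MKO at 8 months, 1 (from 6) and 1 (from 2) for SKO at 3 and 8 months, and 1 (from 0) for age in WT of group 1. With limma-voom they were 1 for BKO at 5 months, 9 for IKO at 1 month, and 2, 2 and 6 for BKO, IKO and MKO tumours against WT. With quantile normalization they were 1 for BKO at 5 months and 1 for SKO at 1 month, and with the low filter 2 for MKO non-tumour liver.

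With 1 library left out the counts ranged, for tumour against non-tumour liver, from 20 to 25 in IKO, 27 to 33 in SKO, 28 to 37 in WT of group 1, 15 to 30 in WT of group 2, 1 to 8 in BKO and 2 to 11 in MKO. The difference of this effect in MKO ranged from 0 to 4. Against WT they ranged, in non-tumour liver, from 1 to 4 (IKO), 6 to 8 (SKO), 3 to 6 (BKO) and 1 to 4 (MKO), and in tumours from 0 to 2, 2 to 3, 0 to 3 and 0 to 6. At single stages they were 0 to 9 (IKO, 1 month), 0 to 3, 1 to 5, 3 to 5 and 1 to 2 (SKO, 1, 3, 5 and 8 months), 0 to 1, 1 to 2 and 0 to 1 (BKO, 3, 5 and 8 months), 0 to 8 (MKO, 8 months), 2 to 6 (SKO over stages) and 0 to 1 (age, WT of group 1). Rpl29 changed sign where it was near 0: in IKO non-tumour liver (0.04) to −0.079 with limma-voom and −0.031 without IKO 8-month non-tumour replicate 1 (highest 0.127), and in MKO tumours (0.03) to −0.005 with limma-voom and −0.161 without MKO tumour replicate 1 (highest 0.215). Members under 10 reads limit what can be called. The cause of these changes was not tested.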
